A study of Homo sapiens with 6 samples.

Results

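The genes described here are 43 genes of the interferon and double-stranded RNA response: sensors of foreign RNA, the transcription factors they act through, ligands, and the effectors that interferon switches on. They were taken by symbol from a list of names compiled by known function, with no threshold on their counts, and each of the 43 names matched 1 gene among the 62703 gene IDs of the count files (a symbol carried by several IDs would have taken the ID with the highest mean count). The list was chosen with earlier results of these data known. Cells sense long or unusual RNA duplexes through cytoplasmic proteins such as RIG-I, MDA5, PKR and the OAS enzymes. RIG-I and MDA5 signal to interferon regulatory factors, these switch on type I interferon, and interferon acts back on the cell through JAK kinases and a complex that holds STAT2 and IRF9 to raise the RNA of many target genes, the sensors among them. Short interfering RNAs are themselves double-stranded, so this group of genes is commonly inspected after they are introduced.

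RNA came from SEM, an established line of human B-cell precursor acute lymphoblastic leukaemia that carries the KMT2A::AFF1 fusion. In the KD group (3 libraries), cells received 2 Dicer-substrate duplexes that target the back-splice junction of AK_8_2, a circular RNA transcribed from the fusion. In the NC group (3 libraries), cells received a commercial non-targeting duplex of the same type, and both groups were transfected with the same lipid reagent, once in suspension and once more 24 h later. Both groups therefore carried introduced duplex RNA, and the contrast between them holds no measure of a response that both transfections raise to the same level; untransfected cells are not analysed here. Counts per gene do not separate AK_8_2 from linear KMT2A and AFF1 transcripts, so the degree of silencing is not assessed here.

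Gene counts totalled 14750579 to 26694160 per library. The libraries numbered 1 in both groups stood apart: 48.6% and 50.03% of their records overlapped no annotated gene (11.3% to 17.3% in the others), and 52077 and 53121 genes had at least 1 count, against 30641 to 32311. In KD replicate 3 multiply aligned reads made up 31.5% of the records, against 4.70% to 17.3% elsewhere. Of 10 B-cell precursor markers, 8 were above background in all 6 libraries, with PAX5 at a mean of 117 RPKM and CD79A at 98.3, while DNTT and RAG1 were at or near background in most libraries. The summed level was 1515 to 2049 CPM for that list, 27.6 to 31.4 CPM for 8 monocyte markers, 90.5 to 99.6 CPM for 8 T and NK cell markers (most of it TRAC), 6.21 to 13.0 CPM for 5 plasmacytoid dendritic cell markers and 85.4 to 105 CPM for 6 fibroblast markers (most of it PDGFRB), with KD and NC ranges overlapping in each list.

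Many members hold a known interferon-responsive sequence in their promoters. Their choice by known function used no sequence, but it is not independent of this element, so its share among them is a description only. The interferon-stimulated response element (ISRE), bound by the STAT and IRF factors, was searched on both strands as GAAA, any 2 bases and GAAA, which on the other strand reads TTTC, any 2 bases and TTTC. Of the 34 members with a promoter window in the RefSeq table (250 bases before to 50 after a transcript start, GRCh38.p14), 23 held at least 1 match, or 67.65%, against 4.376% of all 27305 genes with a window. The gamma-activated site (GAS), a second interferon-responsive element, was searched as TTCNNNGAA, which reads the same in letters on both strands, and was present in 10 of the 34 members (29.41%) and in 9.376% of all genes. These 2 patterns can overlap, since a GAA or a TTC of an ISRE match can also be part of a GAS match. The members' windows held 42 distinct ISRE sites, of which 41 began upstream of every start whose window holds them and 34 within 150 bases upstream of a start. Windows can overlap, and 4 of these sites lie in more than 1 of them (1 site of IFI44, a pair of IFI27, and 1 shared by PARP9 and DTX3L).

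The first ISRE match upstream of the start, with any other match close to it, is shown for 8 members to which the results return, with 8 bases on each side and the ISRE letters in capitals, 5′ to 3′ on the gene's strand. They lie upstream of the starts of IFIT1 (chr10:89392499-89392537, plus strand), ISG15 (chr1:1013376-1013407, plus strand), IFITM3 (chr11:320878-320920, minus strand), IFITM1 (chr11:313992-314017, plus strand), IFI6 (chr1:27672331-27672356, minus strand), IFI27 (chr14:94110620-94110658, plus strand), BST2 (chr19:17405737-17405768, minus strand) and CXCL10 (chr4:76023701-76023726, minus strand).
IFIT1: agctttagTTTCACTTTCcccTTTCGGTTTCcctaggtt
ISG15: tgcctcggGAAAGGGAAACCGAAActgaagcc
IFITM3: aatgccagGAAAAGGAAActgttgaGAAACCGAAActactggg
IFITM1: aacagcagGAAATAGAAActtaagag
IFI6: agagagggGAAAATGAAActctgcag
IFI27: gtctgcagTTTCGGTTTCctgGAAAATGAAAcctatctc
BST2: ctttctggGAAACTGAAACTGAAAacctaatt
CXCL10: atgttttgGAAAGTGAAAcctaattc
IFI6 holds further matches at -115 and -93 and IFITM1 one at -6, counted from the start, which are not printed. In ISG15 and BST2 a pair of matches shares 4 bases, so the element reads as 3 GAAA blocks in a row. IFIT1 holds a pair of matches on the opposite strand, IFI27 holds 1 on each strand, and IFITM3 has a pair on its own strand separated by a short spacer. The level of RNA in SEM varied widely among members with a match: those with an ISRE match ranged from 0.150 to 48.2 RPKM (median 3.00, 23 genes) and those with a window but no match from 0.068 to 10.3 RPKM (median 2.40, 11 genes).

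**Figure D1:**
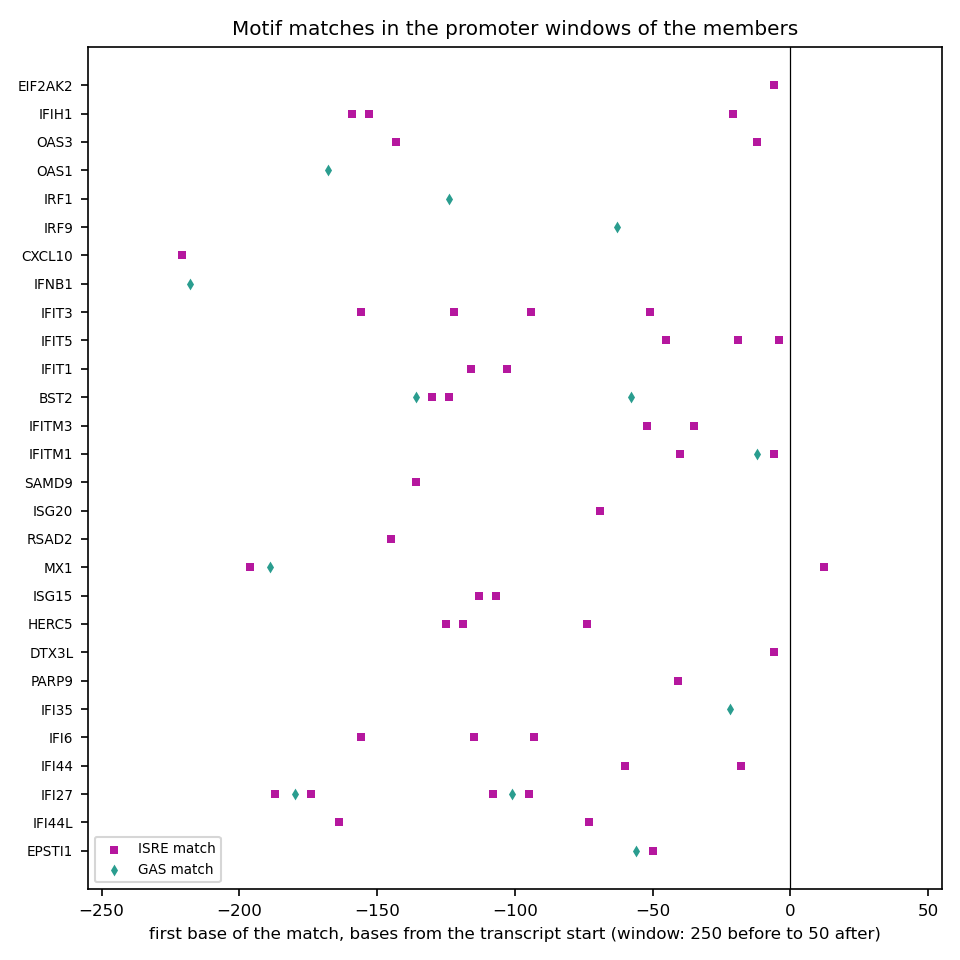
Matches to the ISRE (squares) and GAS (diamonds) patterns in the RefSeq promoter windows of the members that have at least 1 match, by the position of the first base of the match relative to the transcript start. A site in overlapping windows is drawn once for each window, so the 42 distinct ISRE sites appear as 46 squares, 45 of them left of the start.

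The members were present in SEM at very different levels, and the ranking placed the IFITM2 and BST2 membrane proteins and the PKR gene above the RNA helicase sensors. Levels are given as RPKM, the CPM on TMM library sizes divided by the summed exon length in kb, so that genes can be set against each other. The level of 381 olfactory receptor genes, which blood cells are not known to use, served as the background: its 95th percentile was 0.611 and 0.687 RPKM in the libraries numbered 1 and 0.047 to 0.076 in the other 4. Of the 43 members, 37 were above that level in all 6 libraries, 5 in some and 1 in none. With the highest receptor gene of each library as the limit instead (1.44 to 2.08 RPKM), 22 members remained above it in all 6. That limit is not typical of the receptor genes. The highest of them on average was OR2W3, at 1.68 RPKM in the libraries numbered 1 and 1.73 in the other 4. The next in those 4 was OR2T8 at 0.626. Without the libraries numbered 1, 41 of the 43 were above the 95th percentile in the remaining 4.

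**Figure D2:**
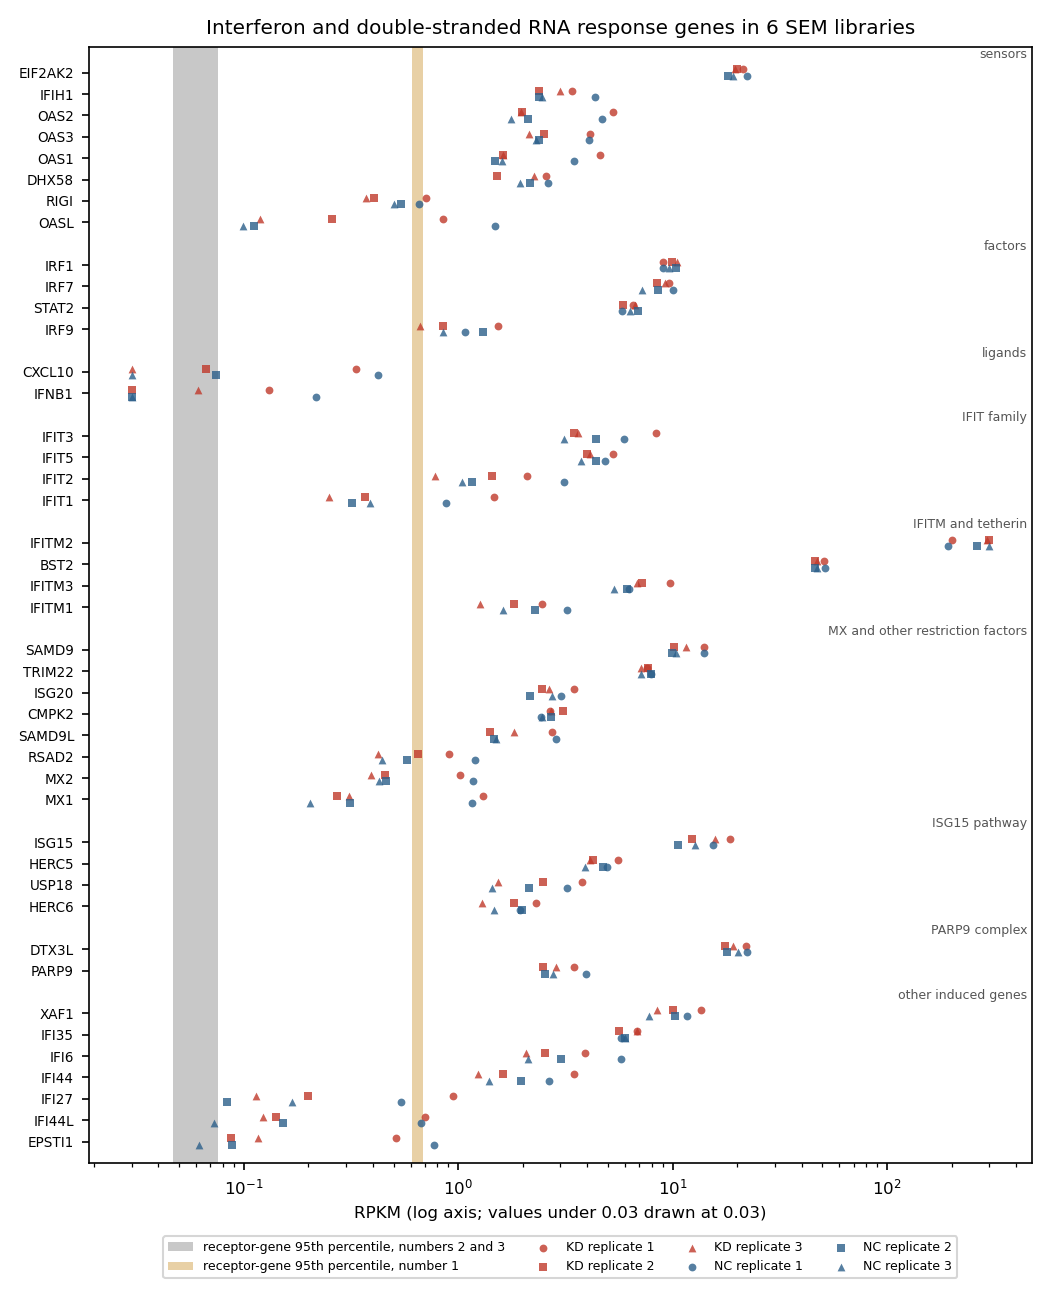
RPKM of each of the 43 members in each library on a log axis, grouped by role; red symbols are KD, blue are NC, and circles, squares and triangles are replicate numbers 1, 2 and 3. The shaded bands span the 95th percentile of the olfactory receptor genes, at 0.611 to 0.687 RPKM for number 1 and 0.047 to 0.076 RPKM for numbers 2 and 3. For the low genes the circles of both groups lie to the right of the other symbols.

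No member passed the test between KD and NC. The quasi-likelihood test of edgeR, with p-values adjusted by Benjamini-Hochberg over 16929 genes, called 0 of the 41 tested members higher and 0 lower, and over all genes it called 0 (0.0% higher and 0.0% lower). At an unadjusted p under 0.05 it counted 0 members, against 0.307% of all genes, and DESeq2 called 0 members and 0.00591% of all genes. So few genes reached these limits without the block that 0 of 41 says little about the members. With the replicate number as a block it also called 0 members in either direction, against 0.142% of all genes higher and 0.0295% lower. IFITM3 and ISG15 were the 2 members with an unadjusted p under 0.05 in the blocked fit, both higher in KD. At that limit the fit held 4.97% of all genes (2.9% higher and 2.07% lower), so 2 of 41 members higher and 0 lower stand near the background.

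The estimates of the members scattered around 0. Of the 41, 26 lay above 0 (63.4%, against 48.6% of all genes tested) and their median log2 fold change was 0.038, against -0.0036 over all genes. With the block 24 lay above 0 and the median was 0.028, against -0.0051. The medians of the differences within replicate numbers 1, 2 and 3 were 0.062, -0.020 and 0.073. The median of the fit on group only moved when single libraries were left out: it was -0.20 without KD replicate 1, 0.23 without NC replicate 1, -0.042 without NC replicate 3 and -0.0079 without NC replicate 2. The median over all genes tested was -0.020, -0.0023, -0.094 and -0.11 under the same omissions. Each such omission leaves a replicate number in only 1 group, so group and replicate number are then mixed. With both libraries numbered 1 left out, the members' median was 0.028 (39 tested), against -0.0092 over all genes.

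How large a difference remained possible varied by gene. Under the blocked fit the 95% interval of 30 of the 41 members (73.2%, against 66.6% of all genes) lay within 1.5-fold in either direction. Without the block, whose spread between libraries was far wider (biological coefficient of variation 0.372 against 0.0683), this held for 15 of 41 (36.6%, against 50.7% of all genes). The 11 members with wider blocked intervals were RIGI, OASL, IRF9, IFIT1, IFIT2, IFITM1, IFITM3, IFI44L, IFI6, IFI27 and EPSTI1, all but IFITM3 of them under 4 RPKM on average. In these 11 a difference of 1.5-fold in at least 1 direction was within the interval.

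**Figure D3:**
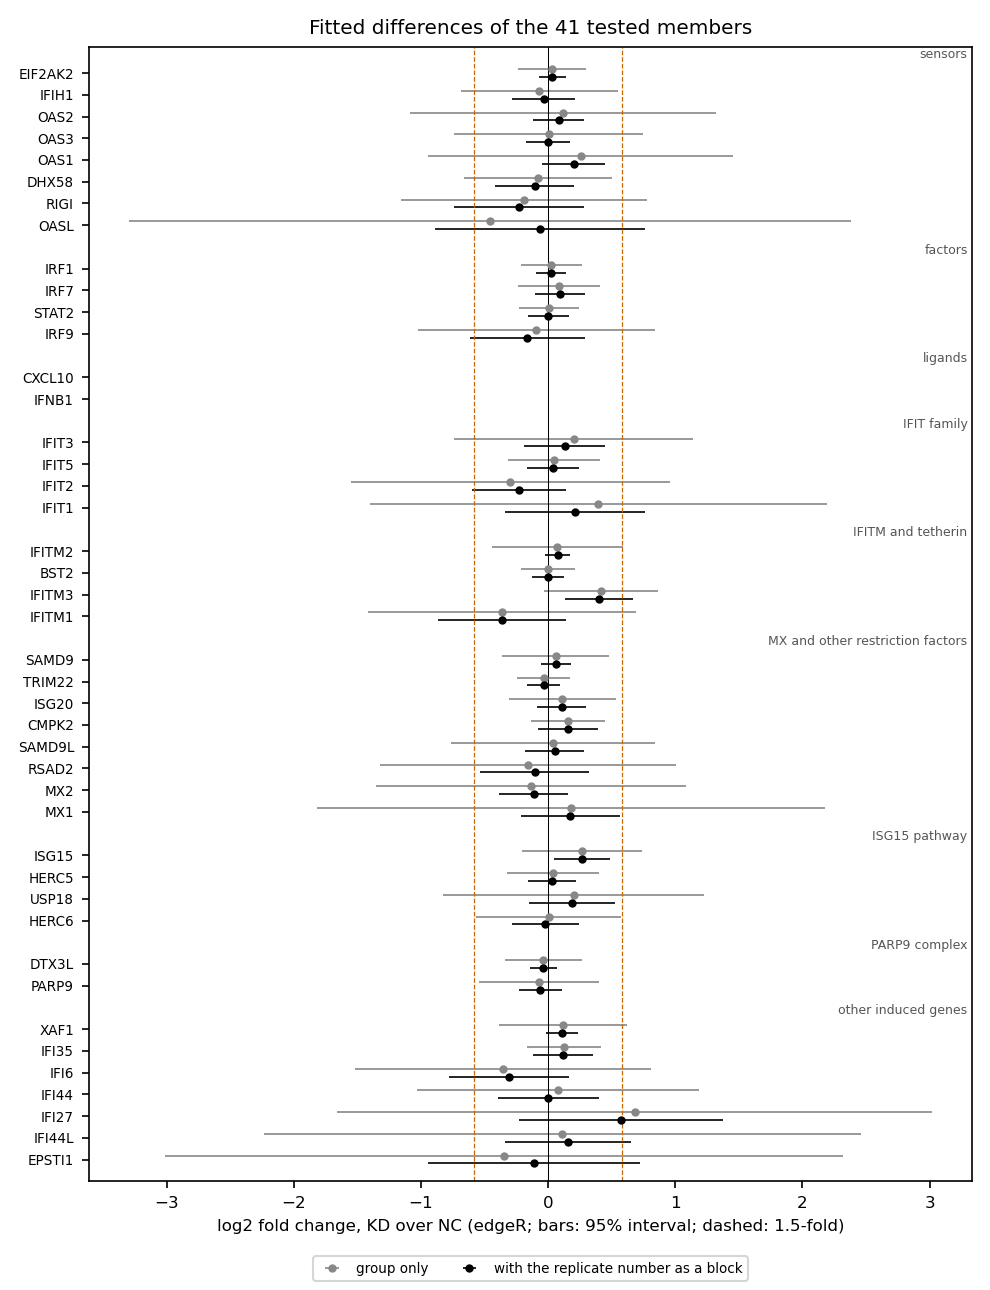
Log2 fold change of KD over NC for the 41 tested members with 95% intervals from edgeR, grey for the fit on group only and black for the fit with the replicate number as a block; dashed lines mark 1.5-fold, and IFNB1 and CXCL10 have no value because their counts were too low to be tested. With the block 30 of the 41 intervals lie between the dashed lines.

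Among the sensors, PKR was the most abundant, RIGI and OASL were the lowest, and none differed detectably between the groups. With the block 6 of the 8 sensors had 95% intervals within 1.5-fold (66.6% of all genes), but without it only 1 of the 8 (50.7% of all genes). EIF2AK2, which encodes PKR, a kinase that binds duplex RNA and halts translation, had 21.3, 19.9 and 19.5 RPKM in KD replicates 1, 2 and 3 and 22.3, 18.1 and 19.2 RPKM in NC. The ranges of the groups overlapped, the log2 fold change was 0.028 (SE 0.11), and the blocked 95% interval ran from 0.952-fold to 1.10-fold. RIGI, the helicase that recognises short duplexes with a 5′ triphosphate end, had 55, 45 and 31 counts in KD and 46, 54 and 50 in NC, or 0.374 to 0.711 RPKM over the 6 libraries. It was above background in 5 of the 6, and its differences within numbers 1, 2 and 3 were 0.11, -0.39 and -0.41 on the log2 scale. Its blocked log2 fold change was -0.23 (SE 0.24), which leaves 0.598-fold to 1.21-fold within the 95% interval.

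IFIH1 encodes MDA5, the helicase that detects long duplexes. It had 3.41, 2.39 and 2.98 RPKM in KD and 4.37, 2.38 and 2.47 RPKM in NC, with a blocked log2 fold change of -0.034 (SE 0.12). DHX58 encodes LGP2, a related helicase that tunes the other helicases and lacks their signalling domains, and it had 2.58, 1.52 and 2.25 RPKM in KD against 2.62, 2.17 and 1.93 RPKM in NC. For both helicases the KD and NC values overlapped and the sign changed between replicate numbers.

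The OAS genes encode enzymes that make 2-5A when they bind duplex RNA, which in turn activates the nuclease RNase L. OAS1 had 4.57, 1.63 and 1.62 RPKM in KD and 3.48, 1.49 and 1.60 RPKM in NC. It was higher in KD within each replicate number, by 0.39, 0.13 and 0.021 on the log2 scale, but the ranges overlapped and the blocked log2 fold change of 0.20 (SE 0.12) did not pass. OAS2 had 5.30, 1.99 and 1.96 RPKM in KD and 4.69, 2.11 and 1.77 RPKM in NC. OAS3, the family member with the most domains, had 4.14, 2.51 and 2.14 RPKM in KD and 4.10, 2.37 and 2.31 RPKM in NC. In all of these genes the libraries numbered 1 were high in both groups, and the gap between replicate numbers exceeded the gap between KD and NC.

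OASL, an OAS relative with no enzyme activity that aids RIG-I, was the least abundant sensor by mean RPKM. It had 53, 23 and 8 counts in KD and 84, 9 and 8 in NC, so most of its reads came from the libraries numbered 1. Its log2 differences were -0.79, 1.03 and 0.21 within numbers 1, 2 and 3, and its blocked log2 fold change was -0.064 (SE 0.39). A difference of 1.5-fold in either direction was within its 95% interval (0.540-fold to 1.70-fold).

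Of the transcription factors, IRF1, IRF7 and STAT2 were present and level between the groups. IRF1, an early-response factor, had 9.07, 9.97 and 10.5 RPKM in KD and 9.02, 10.4 and 9.59 RPKM in NC. IRF7, the factor that amplifies interferon-alpha genes, had 9.62, 8.49 and 9.21 RPKM in KD and 10.1, 8.52 and 7.19 RPKM in NC. STAT2, a subunit of the interferon-activated complex, had 6.55, 5.90 and 6.69 RPKM in KD and 5.82, 6.88 and 6.36 RPKM in NC. In each of these factors the groups overlapped, and the blocked log2 fold changes of 0.024 (SE 0.056), 0.094 (SE 0.093) and 0.00083 (SE 0.077) had 95% intervals within 1.5-fold.

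IRF9, the DNA-binding subunit of that complex, was lower and less certain. It had 1.53, 0.849 and 0.664 RPKM in KD and 1.08, 1.31 and 0.853 RPKM in NC, higher in KD within number 1 by 0.49 on the log2 scale and lower within numbers 2 and 3 (-0.61 and -0.35). Of the 50-base words in its transcripts, 43.8% also occur in other genes, nearly all in a gene on the same strand that spans it, and its count could be affected by how such reads were assigned.

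The ligands were at the floor. IFNB1, the gene of interferon beta, had 2, 0 and 1 counts in KD and 3, 0 and 0 in NC. CXCL10, a chemokine that interferon induces strongly in many cells, had 7, 2 and 0 counts in KD and 8, 2 and 0 in NC. In both genes most reads were in the libraries numbered 1, where the background was also higher, and CXCL10 was above background in no library and IFNB1 only in KD replicate 3, where it had a single read. A count of 0 allows up to 3 counts. In KD replicate 2 and NC replicates 2 and 3, where IFNB1 had 0 counts, that is 0.118 to 0.131 CPM. Lower levels of IFNB1 in those libraries cannot be told from 0, and neither gene was tested.

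Of the IFIT family, RNA-binding proteins that hinder the translation of viral RNA, IFIT3 and IFIT5 were above the others. IFIT2 had 2.10, 1.44 and 0.781 RPKM in KD and 3.11, 1.17 and 1.04 RPKM in NC. It was lower in KD within numbers 1 and 3 and higher within number 2 (-0.56, 0.29 and -0.41), and its blocked log2 fold change was -0.23 (SE 0.17, edgeR adjusted p 0.999). IFIT1, whose promoter holds a pair of ISRE matches and which is among the most inducible interferon targets, had only 22 to 120 counts per library. Its estimate was 0.39 (SE 0.76) on the log2 scale without the block and 0.21 (SE 0.26) with it. IFIT3 ranged from 3.11 to 8.40 RPKM and IFIT5 from 3.75 to 5.30, with the groups overlapping in both. IFIT1, IFIT2 and IFIT3 lie on the opposite strand of a region annotated to LIPA, a lysosomal lipase gene with a mean of 904 counts, and without a stated strand setting reads of the 2 strands cannot be told apart.

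IFITM2 was the most abundant member. The IFITM proteins sit in membranes and hinder the entry of enveloped viruses. IFITM2 had 200.05, 299.6 and 293 RPKM in KD replicates 1, 2 and 3 and 192, 263 and 298 RPKM in NC, a mean of 258. Its libraries numbered 1 were the lowest of both groups, the reverse of most members, and its blocked log2 fold change was 0.074 (SE 0.048). BST2 encodes tetherin, which holds budding virus particles at the cell surface, and was second at 51.0, 46.4 and 47.2 RPKM in KD and 51.4, 46.2 and 47.2 RPKM in NC. Its values hardly varied, with log2 differences of -0.012, 0.0058 and -0.00042 within the 3 numbers and a blocked interval from 0.916-fold to 1.09-fold.

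IFITM3 was the only member whose 3 KD values all lay above the 3 NC values in CPM. It had 232, 247 and 175 counts in KD and 136, 190 and 164 in NC, or 9.69, 7.20 and 6.81 RPKM against 6.27, 6.13 and 5.32 RPKM, which as a mean over libraries is 10.6 ± 2.10 CPM for KD against 7.96 ± 0.693 CPM for NC (SD, n = 3 each). The highest NC value (6.27 RPKM) was below the lowest KD value (6.81 RPKM). Of all genes tested, 1.67% showed KD wholly above NC and 1.77% KD wholly below, so 1 and 0 of 41 members stand near that background. Its log2 differences were 0.62, 0.23 and 0.35 within numbers 1, 2 and 3, its log2 fold change was 0.42 (SE 0.19) without the block and 0.40 (SE 0.13) with it, and the edgeR adjusted p was 1.00 and 0.607. Without KD replicate 1, which had the highest value, the log2 fold change was 0.25 (SE 0.17), and the lowest adjusted p of any alternative was 0.315. Without both libraries numbered 1 it was 0.29 with and without the block.

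IFITM1 went the other way by estimate. It had 47, 50 and 26 counts in KD and 56, 57 and 40 in NC, and it was lower in KD within each number, by -0.38, -0.32 and -0.34 on the log2 scale. The ranges of 1.26 to 2.45 RPKM in KD and 1.62 to 3.22 RPKM in NC overlapped, and the blocked log2 fold change of -0.36 (SE 0.24) did not pass. Between 32.0% and 35.2% of the 50-base words of IFITM1, IFITM2 and IFITM3 occur in other genes, and the annotated IFITM2 region contains IFITM1 on the same strand, so reads of these neighbours can be lost or reassigned in counting. The IFITM3 region also overlaps antisense genes with means of at most 14.3 counts per library. The different estimates of IFITM1 and IFITM3 were not tested against each other.

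MX and the other restriction factors ranged from MX1 at 0.203 to 1.31 RPKM to SAMD9 at 9.94 to 14.1 RPKM. SAMD9, an antiviral factor against poxviruses, had 14.1, 10.1 and 11.5 RPKM in KD and 13.97, 9.94 and 10.4 RPKM in NC, with a blocked log2 fold change of 0.062 (SE 0.054). CMPK2, a mitochondrial nucleotide kinase next to RSAD2, had 2.68, 3.08 and 2.71 RPKM in KD and 2.43, 2.72 and 2.45 RPKM in NC. It was higher in KD within each number (0.14, 0.18 and 0.14), yet its blocked log2 fold change of 0.16 (SE 0.11) did not pass. The other members of this group, MX1 and MX2 (dynamin-like GTPases that block viruses after entry), SAMD9L, TRIM22, the nuclease ISG20 and RSAD2 (viperin, which makes a chain-terminating nucleotide), had blocked log2 fold changes from -0.11 to 0.18. With the block all 8 genes of the group had 95% intervals within 1.5-fold (66.6% of all genes), against 4 of the 8 without it (50.7% of all genes).

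The ISG15 pathway attaches a ubiquitin-like protein, ISG15, to other proteins through ligases that include HERC5, and USP18 removes it and damps interferon signalling. ISG15 had 310, 296 and 282 counts in KD and 234, 230 and 273 in NC, or 18.5, 12.4 and 15.7 RPKM against 15.5, 10.6 and 12.7 RPKM. The groups overlapped because libraries numbered 2 were the lowest and those numbered 1 the highest of both groups. Within numbers 1, 2 and 3 ISG15 was higher in KD by 0.26, 0.21 and 0.31 on the log2 scale. The blocked log2 fold change of 0.26 (SE 0.10, 1.03-fold to 1.40-fold) had an edgeR adjusted p of 0.888 and did not pass. USP18 was also higher in KD within each number, with a blocked log2 fold change of 0.19 (SE 0.16); 23.4% of its 50-base words occur in other genes, nearly all in the copy USP41. HERC5 and HERC6 had blocked log2 fold changes of 0.028 (SE 0.090) and -0.021 (SE 0.12).

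PARP9 and DTX3L, partners in a ubiquitin ligase complex that takes part in interferon signalling and DNA repair, are read from a shared promoter region in opposite directions. DTX3L had 22.0, 17.6 and 19.2 RPKM in KD and 22.2, 17.99 and 20.2 RPKM in NC. It was lower in KD within each number by very little (-0.0096, -0.031 and -0.071), and its blocked interval ran from 0.907-fold to 1.05-fold. PARP9 ranged from 2.49 to 3.96 RPKM, with a blocked log2 fold change of -0.061 (SE 0.079).

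Among the remaining induced genes XAF1, an antagonist of the apoptosis inhibitor XIAP, led with 13.6, 10.1 and 8.50 RPKM in KD and 11.7, 10.2 and 7.78 RPKM in NC. Its blocked log2 fold change was 0.11 (SE 0.060), and 34.7% of its 50-base words also occur in an overlapping gene on the opposite strand. IFI35 had 6.85, 5.65 and 6.84 RPKM in KD and 5.77, 5.97 and 5.98 RPKM in NC. IFI6, a small membrane protein that counters apoptosis and viral replication, had 60, 56 and 34 counts in KD and 80, 60 and 42 in NC. It was lower in KD within each number (-0.55, -0.24 and -0.039), with overlapping groups and a blocked log2 fold change of -0.30 (SE 0.22). IFI44, IFI44L, IFI27 and EPSTI1 had blocked log2 fold changes from -0.11 to 0.57, and the highest of them, IFI27, had 8 to 70 counts per library and a 95% interval from 0.852-fold to 2.60-fold.

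Direction was shared by all 3 replicate numbers in 10 of the 41 tested members. IFITM3, ISG15, SAMD9, CMPK2, USP18 and OAS1 were higher in KD in all 3, which is 6 of 41, against 13.1% of all genes. DTX3L, IFI6, IFITM1 and MX2 were lower in all 3, which is 4 of 41, against 12.6% of all genes. Both counts are near their background. The members that share a direction have different roles: an entry inhibitor, a ubiquitin-like modifier, a modifier protease, a poxvirus factor, a nucleotide kinase and a 2-5A synthetase among the first, and a ligase, another IFITM gene, IFI6 and an MX GTPase among the second.

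**Figure D4:**
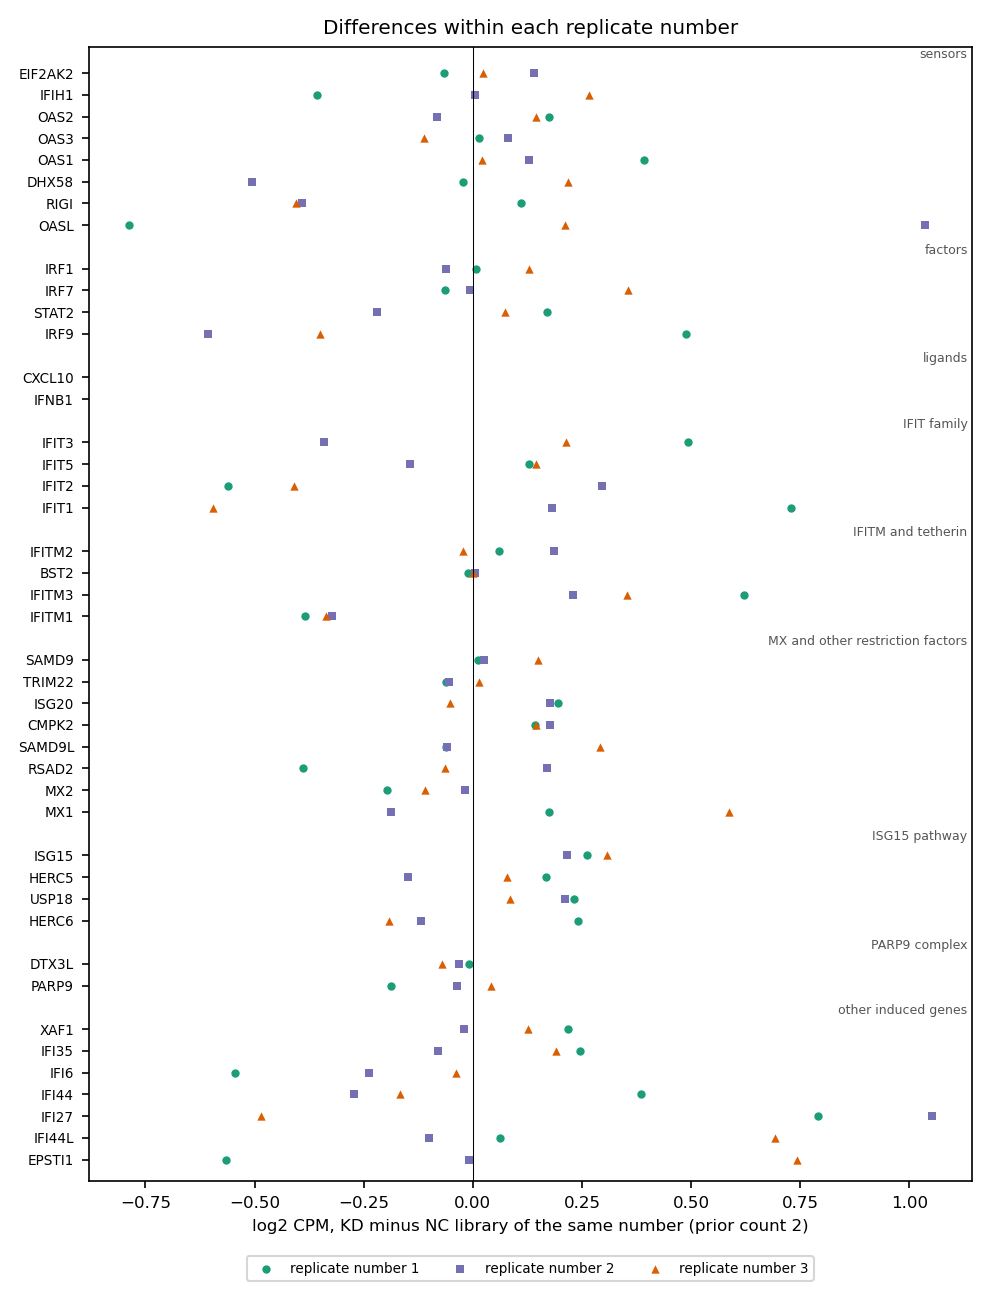
Difference in log2 CPM (prior count 2) between the KD and the NC library of the same replicate number for each of the 41 tested members; circles, squares and triangles are numbers 1, 2 and 3. For IFITM3 all 3 symbols lie right of 0 at 0.62, 0.23 and 0.35, and for most other members they lie on both sides.

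The replicate number separated many low members more than the treatment did. OASL had 7.95 times the mean RPKM in the 2 libraries numbered 1 that it had in the other 4, EPSTI1 7.23 times, IFI44L 5.62 times, IFI27 5.27 times, MX1 4.50 times and IFIT1 3.53 times. In the 8 members with the highest mean RPKM the ratio was 0.679 for IFITM2, 1.10 for BST2, 1.14 for EIF2AK2, 1.18 for DTX3L, 1.32 for ISG15, 1.34 for SAMD9, 1.38 for XAF1 and 0.894 for IRF1. Olfactory receptor genes moved in the same direction, with a median of 0.180 and 0.201 RPKM in the libraries numbered 1 and 0 in each of the other 4, beside the larger share of records outside genes in those libraries. The part of that background in the members' levels was not tested. In bulk RNA, in these genes as in all others here, fewer cells that express a gene and less RNA per cell cannot be told apart.

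**Figure D5:**
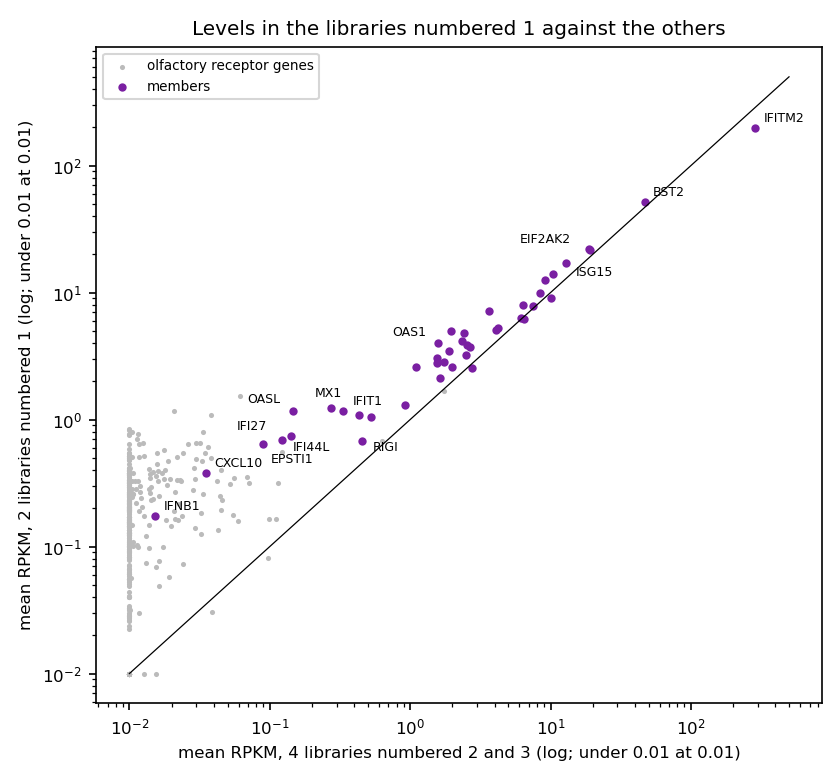
Mean RPKM in the 2 libraries numbered 1 (vertical, log) against the mean in the 4 libraries numbered 2 and 3 (horizontal, log) for the 43 members and 381 olfactory receptor genes; the line marks equal levels. OASL lies 7.95 times above equality and BST2 1.10 times, while IFITM2 lies below the line at 0.679.

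Genes of the pathway outside the 43 were described from lists chosen with earlier results of these data known, so counts within them are a description only. None of these genes passed in either direction, with or without the block. Interferon ligands other than IFNB1 (20 genes) summed to 5.40 and 5.35 CPM in the libraries numbered 1 and to 0.087 to 0.420 CPM in the other 4. None of the 20 was tested, and 15 to 18 of them had no count in each of those 4 libraries. Above background were 3 of the 20 in KD replicate 1 and 1 in NC replicate 1, against 0 to 3 in the other 4 libraries. The receptors and JAK-STAT signalling genes were present: IFNAR1, the first chain of the type I interferon receptor, averaged 11.7 RPKM and the kinase JAK1 24.4. Of 15 such genes 13 were tested, with a median blocked log2 fold change of -0.022. The 2 with the smallest p were the kinase TYK2 at -0.12 (SE 0.062) and the receptor chain IL10RB at -0.35 (SE 0.19).

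None of the sensing and adaptor genes passed either. Of 24 genes, 21 were tested, and 5 lay above 0 with the block (23.8%, against 48.0% of all genes). Their median blocked log2 fold change was -0.028. MYD88, the adaptor of most Toll-like receptors, averaged 24.3 RPKM and had a log2 fold change of 0.10 (SE 0.051), and the kinase IKBKE one of -0.12 (SE 0.081). ADAR, which edits duplex RNA and so shields the cell's own transcripts, averaged 41.7 RPKM with a log2 fold change of 0.0028 (SE 0.045). The duplex RNA receptor TLR3 was low (0.577 RPKM on average), and TLR9 had 0 counts in all 6 libraries.

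Class I antigen presentation genes, also targets of interferon, had 9 of 13 blocked estimates above 0 (69.2%, against 48.0% of all genes) and a median of 0.037. At an unadjusted p under 0.05 the blocked fit held 3 of the 13, all higher in KD (2.9% of all genes), and 5 were higher and 2 lower in all 3 replicate numbers (13.1% and 12.6% of all genes). HLA-C and HLA-B, which encode class I heavy chains, had blocked log2 fold changes of 0.16 (SE 0.045) and 0.14 (SE 0.043), with edgeR adjusted p of 0.415 and 0.534, neither past the threshold. These genes share sequence with each other, so uniquely placed reads measure only part of them. Within that list the levels of HLA-C were 105, 121 and 120.1 RPKM in KD and 91.6, 111 and 108 RPKM in NC, which overlap between the groups, and KD was higher within each replicate number (0.19, 0.13 and 0.15 on the log2 scale). Of 29 other interferon-induced genes 28 were tested, and the median was 0.050 with the block. In each fit 21 lay above 0 (75%), against 48.6% of all genes without the block and 48.0% with it. In all 3 replicate numbers 11 of the 28 were higher in KD and 0 lower, against 13.1% and 12.6% of all genes. All 28 blocked intervals lay within 1.5-fold (66.6% of all genes), against 23 of the 28 without the block (50.7% of all genes). LY6E at 0.13 (SE 0.056) and SHISA5 at 0.12 (SE 0.052) had the smallest p, with adjusted p of 0.981 and 0.974. IFI16 and TRIM21 were the 2 of the 28 whose KD values all lay above NC (1.67% of all genes), at 0.061 (SE 0.046) and 0.16 (SE 0.077), named here after their values were seen.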

How the data were processed

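Total RNA was sequenced from 6 SEM libraries, 3 KD and 3 NC, grouped by sample titles; the labels call the replicates independent, and p-values measure the spread between these libraries. The deposited files hold whole-number counts per Ensembl gene, and the submitters' processing notes name STAR 2.7.10a, HTSeq 0.11.1, FastQC 0.11.8, DESeq2 and the hg38 build. For the annotation release, the strand setting and the use of multiply aligned reads, the value is not given in the sources used here. The 5 summary lines per file, which name no gene, entered neither library sizes nor tests; gene counts made up 33.5% to 60.2% of all records. Of 62703 IDs, 62639 were in the gene name table and 58264 in GENCODE 29, which gave coordinates and exon lengths; RefSeq gave the promoter windows.

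Counts were tested in R 4.3.3 with edgeR 4.0.16 (genes kept by filterByExpr, TMM scaling, a robust quasi-likelihood fit with group as its term), Benjamini-Hochberg adjusted over 16929 genes with a threshold of 0.05; SEs and 95% intervals come from the same fit. Differences within a replicate number used log2 CPM with a prior count of 2. Alternatives were DESeq2 1.42.0, a replicate block, other scaling factors, other filters and omission of libraries. The code was tested on simulated data. Chi-square per degree of freedom between replicates of the same group was 20.2 to 82.0, so no library repeated another of its group. KD libraries were not compared with NC libraries in this way.

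Both groups share replicate numbers. Deviations from group means correlated at 0.889, 0.619 and 0.605 between same-numbered libraries, each over the limit of 0.1 for treating the numbers as pairs, so blocked values stand beside the results. The labels state no pairing, KD replicate 2 correlated with NC replicate 3 at 0.590 and KD replicate 3 with NC replicate 2 at 0.553; mainly number 1 carries the pairing.

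Values per library are given for members called in either fit, the 8 sensors, the 4 transcription factors, the 8 members with the highest mean RPKM, and the 4 with the smallest p in each direction in each fit (24 in all, and others where a sentence needs them); of each pathway list, for called genes and the 2 with the smallest p in the blocked fit, to which other genes were added as examples of a list's level. The members and lists were chosen with earlier results of these data known. Depth of 14750579 to 26694160 counts limits what can be seen in the low genes. Some genes of the pathway and marker lists are counted but not reported here by name.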

Additional observations from a re-analysis of the deposited data

How the results depend on the processing

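In all 19 alternatives 0 members were called in either direction. Over all genes 0 were called in the fit on group only, 29 with the replicate block, 1 with DESeq2 and 27 with DESeq2 and the replicate block; the block without replicate 1, 2 and 3 gave 5, 119 and 73, the latter 2 over more genes tested (29982 and 29966). The paired fit changed no call of a member. The median log2 fold change of the members ran from -0.20 to 0.23 when 1 library was left out, lowest without KD replicate 1 and highest when NC replicate 1 was omitted, and was -0.042 without NC replicate 3; the cause was not tested. It was 0.028 without both libraries numbered 1 and lay between 0.019 and 0.042 under the other scalings, filters and DESeq2. Of 453 log2 fold changes of the 24 genes with values per library, 67 had another sign than the reported one, in 18 of the 24 genes; IFITM3, ISG15, CMPK2 and IFI35 were above 0 and RIGI and IFITM1 below 0 in every alternative. Members above background in all 6 libraries numbered 37, also without TMM factors, and 22 with the highest receptor gene as the limit in place of the 95th percentile. On average that gene was OR2W3, which stood far above most receptor genes. Without replicate 1, an alternative chosen after seeing the data, 41 were above the 95th percentile. OASL, EPSTI1, IFI27 and IFI44L had as few as 7 to 17 counts in their lowest library; the SE of OASL was 1.1995 without the replicate block and 0.39 with it, and the part of depth in these errors was not tested.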
